A study of Mus musculus with 8 samples.

Results

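The genes described here are 10 of the 31053 genes counted in brown adipose tissue (BAT): the stress hormones Gdf15 and Fgf21, the transcription factors Atf3, Atf4, Atf5 and Ddit3, and the ATF4 target genes Trib3, Asns, Chac1 and Sesn2. They were chosen by name as a pathway, with the counts of these same mice already known, because Gdf15 went from nearly no reads to many. Their genotype differences are therefore given as a description, without p-values. BAT came from 4 WT and 4 Ucp1Δ/Δ mice (labelled ATGLKO) on a C57BL6/J background. The Ucp1Δ/Δ mice carried Pnpla2 flox/flox alleles and a Ucp1-driven Cre, which removes adipose triglyceride lipase (ATGL) from UCP1-positive thermogenic adipocytes and leaves the gene intact in other cells. The labels give an age of 10 weeks for all mice, while the legend of the study names a younger age. They also name the stromal vascular fraction, although Ucp1, the uncoupling protein of brown adipocytes, stood at 1291 CPM or more in every library and Adipoq, the adipocyte hormone adiponectin, at 573.9 CPM or more. The study used the model to ask whether lipid-associated macrophages gather in BAT when the adipocytes lack lipolysis, and the stress response was not its subject.

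The integrated stress response is the route by which cells react to amino acid shortage, misfolded protein in the endoplasmic reticulum (ER), double-stranded RNA, heme shortage and damaged mitochondria. Kinases phosphorylate the translation factor eIF2, general translation falls, and the mRNA of the transcription factor ATF4 is translated more. ATF4 then raises genes for amino acid synthesis, amino acid uptake and tRNA charging, as well as further factors such as CHOP (Ddit3) and ATF3. GDF15 and FGF21 are the secreted hormones of this response. GDF15 acts on food intake through the receptor GFRAL in the hindbrain, and FGF21 acts on adipocytes and brain through FGF receptors with the coreceptor β-Klotho (Klb). In brown fat both hormones are known as signals of mitochondrial and thermogenic stress.

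The 4 WT libraries summed to 2017697 to 3115956 counts and the 4 Ucp1Δ/Δ libraries to 2240612 to 2941799, and mitochondrially encoded genes took 38.4% to 45.6% of them. Values are CPM, the counts scaled to a common library size, here on totals scaled by the TMM method of edgeR, and 3 counts correspond to 0.934 to 1.53 CPM, a floor for counting error only. Of the 10 genes, 8 had enough counts for the fit across 8930 genes, whereas Fgf21 and Chac1 did not. The targeted gene Pnpla2 stood at 2913 ± 191 CPM in WT and 474 ± 59.2 CPM in Ucp1Δ/Δ mice (SD, n = 4 each), a log2 difference of -2.62 (SE 0.17, edgeR quasi-likelihood test, adjusted p = 1.97e-07). Reads from thermogenic adipocytes and from cells without the Cre are mixed in bulk tissue, and fewer cells of a type cannot be told apart from less RNA per cell.

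ATF4 binds the CEBP-ATF response element, whose core was searched as TGATGNAA and, for the opposite strand, as TTNCATCA. The search covered the RefSeq promoter windows (build GRCm38.p6, 250 bases before to 50 after the transcription start) of all 10 genes. Such a core was present in 5 of the 10, compared with 4.51% of the 27025 genes that have a window and 3.97% of the 32851 windows. Because the 10 genes were chosen by name as an ATF4 pathway, the higher share among them is only a description. The 5 genes were Fgf21, Atf3, Trib3, Asns and Chac1. The stretches around each core are printed 5′ to 3′ on the strand of the gene, with the core in capitals. They show what the measured genes do and do not share in sequence.
Fgf21, chr7:45615596-45615655, minus strand: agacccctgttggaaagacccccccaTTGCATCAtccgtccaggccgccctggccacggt
Atf3, chr1:191183410-191183469, minus strand: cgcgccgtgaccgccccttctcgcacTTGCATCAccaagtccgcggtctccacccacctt
Chac1, chr2:119351023-119351082, plus strand: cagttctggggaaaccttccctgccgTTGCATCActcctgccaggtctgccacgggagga
Trib3, chr2:152344028-152344057, minus strand: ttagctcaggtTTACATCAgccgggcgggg
Asns, chr6:7693214-7693243, minus strand: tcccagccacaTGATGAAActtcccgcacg

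Fgf21, Atf3 and Chac1 share the same 8 bases, TTGCATCA, from position -139, -110 and -193 relative to the start. Asns carries the core on its own strand from position -23. In Trib3 the match begins at position 15 after the RefSeq start, while the GENCODE annotation places the start of the gene downstream of the match. No core was found in the windows of Gdf15 (2 starts), Atf4, Atf5 (2 starts), Ddit3 or Sesn2. Cores outside these windows, or differing from the searched pattern, were not sought, so these genes may still hold an element. The 250 bases upstream of the Gdf15 start are printed because Gdf15 had the largest difference of the set.
Gdf15, chr8:70632457-70632706, minus strand: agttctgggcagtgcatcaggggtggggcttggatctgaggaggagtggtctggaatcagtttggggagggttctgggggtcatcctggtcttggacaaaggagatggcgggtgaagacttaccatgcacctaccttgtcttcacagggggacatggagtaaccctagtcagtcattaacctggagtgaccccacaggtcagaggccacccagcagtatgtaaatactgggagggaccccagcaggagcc

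**Figure D1:**
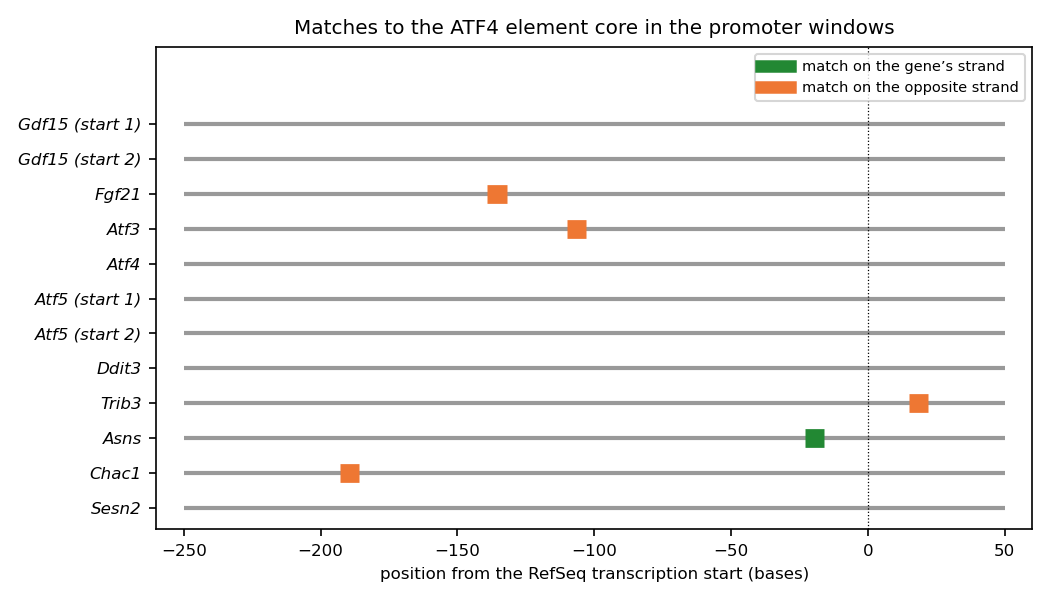
Position of matches to the element core in the promoter window of each gene. The horizontal axis is the distance in bases from the RefSeq transcription start, grey lines are the windows (250 bases before to 50 after the start), and blocks mark matches on the strand of the gene or the opposite strand. Matches sit in Fgf21, Atf3, Trib3, Asns and Chac1.

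Presence of the core did not sort the genes by their expression. Among the 5 genes with a core, Atf3 was far above WT in Ucp1Δ/Δ mice, Trib3 and Asns overlapped between genotypes, and Fgf21 and Chac1 had few or no reads. Among the 5 without one, Gdf15, Atf4 and Atf5 had log2 differences above 0.8, Ddit3 was near 0 and Sesn2 was below WT.

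Of the hormones, Gdf15, a stress hormone of the TGF-β family (Ensembl gene ENSMUSG00000038508, chr8:70629393-70632456, minus strand), had 1, 0, 1 and 1 counts in WT mice 1 to 4. In Ucp1Δ/Δ mice 1 to 4 it had 215, 73, 90 and 35 counts, or 76.1, 22.7, 37.6 and 15.0 CPM. The genotypes did not overlap, and WT values lay at or below the counting floor. Mean CPM were 0.338 ± 0.240 in WT and 37.9 ± 27.2 in Ucp1Δ/Δ mice (SD, n = 4 each). Scaled by library size, the summed counts differed 117-fold, with an exact 95% binomial interval of 39.8 to 571 that covers counting error only. The fitted log2 difference was 6.65 (SE 0.70), a value that rests on 3 counts in WT and ranged from 5.45 to 7.91 over the alternative settings. Within the Ucp1Δ/Δ group the spread was wide, with a coefficient of variation of 71.7%, from 15.0 CPM in mouse 4 to 76.1 CPM in mouse 1.

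Fgf21, the FGF family hormone of fasting and mitochondrial stress (chr7:45613886-45615490, minus strand), was counted once, in WT mouse 4. The other 7 mice had 0 counts, Ucp1Δ/Δ mice included. Over the Ucp1Δ/Δ group, 0 counts allow up to 0.279 CPM. In the Ucp1Δ/Δ mice, Gdf15 was therefore counted 413 times and Fgf21 never.

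Among the transcription factors, Atf4, the factor that carries the response (chr15:80255184-80257541, plus strand), had CPM of 138, 128, 128 and 111 in WT and 315, 219, 308 and 206 in Ucp1Δ/Δ mice. Every Ucp1Δ/Δ mouse stood above every WT mouse. The means were 126 ± 11.1 and 262 ± 57.6 CPM (SD, n = 4 each), a 2.08-fold difference with a log2 value of 1.06 (SE 0.18). ATF4 protein is set largely by translation, which these mRNA counts do not measure.

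Atf3, a stress-induced repressor and activator of the same bZIP family (chr1:191170296-191218039, minus strand), had 0.51, 1.79, 0.33 and 0 CPM in WT mice. In Ucp1Δ/Δ mice it had 12.7, 19.9, 9.19 and 15.5 CPM. The genotypes did not overlap. Means were 0.659 ± 0.784 and 14.3 ± 4.52 CPM (SD, n = 4 each), the summed counts differed 22.4-fold (counting interval 10.1 to 62.0), and the log2 difference was 4.36 (SE 0.51). The order of the Ucp1Δ/Δ mice was not that of Gdf15, since mouse 2 had the highest Atf3 and mouse 1 the highest Gdf15.

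Atf5, a factor tied to the mitochondrial unfolded protein response (chr7:44812256-44816658, minus strand), had 95.9, 152, 93.2 and 68.9 CPM in WT and 246, 137, 156 and 202 CPM in Ucp1Δ/Δ mice. The groups overlapped, because WT mouse 2 stood above Ucp1Δ/Δ mouse 2. The log2 difference was 0.85 (SE 0.24), with 3 of 4 Ucp1Δ/Δ mice above the highest WT mouse. Its exons overlap those of Nup62 and Il4i1 on the opposite strand, and whether the counting used strand is not given in the sources used here, so reads in those 82 bases cannot be assigned with certainty.

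Ddit3, which encodes the pro-apoptotic factor CHOP (chr10:127290774-127296288, plus strand), had 50.5, 46.1, 42.1 and 35.5 CPM in WT and 45.6, 38.9, 40.1 and 37.3 CPM in Ucp1Δ/Δ mice. The values lay within the same range, and the log2 difference was -0.10 (SE 0.17). A stretch of 68 exon bases is shared with Mars on the opposite strand. A second identifier of the same symbol, ENSMUSG00000116429, shares 105 exon bases with this one on the same strand and had 0 counts over the 8 mice, so that all counted Ddit3 reads stood under ENSMUSG00000025408. How reads in the shared bases were assigned is not given in the sources used here.

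Of the downstream targets, Trib3, a pseudokinase that feeds back on ATF4 (chr2:152337422-152344032, minus strand), had 26.5, 33.2, 26.7 and 16.2 CPM in WT and 34.0, 31.7, 24.2 and 18.0 CPM in Ucp1Δ/Δ mice. The log2 difference was 0.08 (SE 0.25). Asns, asparagine synthetase and a standard reporter of ATF4 activity (chr6:7675169-7693254, minus strand), had 30.6, 52.9, 33.7 and 33.4 CPM in WT and 41.8, 28.6, 38.9 and 33.1 CPM in Ucp1Δ/Δ mice, a log2 difference of -0.09 (SE 0.21). Both genes overlapped between genotypes over most of their range.

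Chac1, which degrades glutathione (chr2:119351229-119354381, plus strand), had 7, 3, 8 and 5 counts in WT and 20, 36, 3 and 7 in Ucp1Δ/Δ mice. The highest counts came from Ucp1Δ/Δ mice 1 and 2, whereas the counts of mice 3 and 4 lay within the WT range. In CPM, Ucp1Δ/Δ mouse 3 (1.25) was just below the lowest WT mouse (1.34), each on 3 counts. The summed counts differed 2.44-fold (counting interval 1.499 to 4.12), which takes no account of the spread between mice.

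Sesn2, a sestrin that restrains mTORC1 (chr4:132492032-132510501, minus strand), went the other way. It had 14.3, 26.0, 27.7 and 12.2 CPM in WT and 14.5, 8.71, 5.85 and 9.87 CPM in Ucp1Δ/Δ mice. The log2 difference was -1.05 (SE 0.32), with 3 of 4 Ucp1Δ/Δ mice below the lowest WT mouse and mouse 1 above it.

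**Figure D2:**
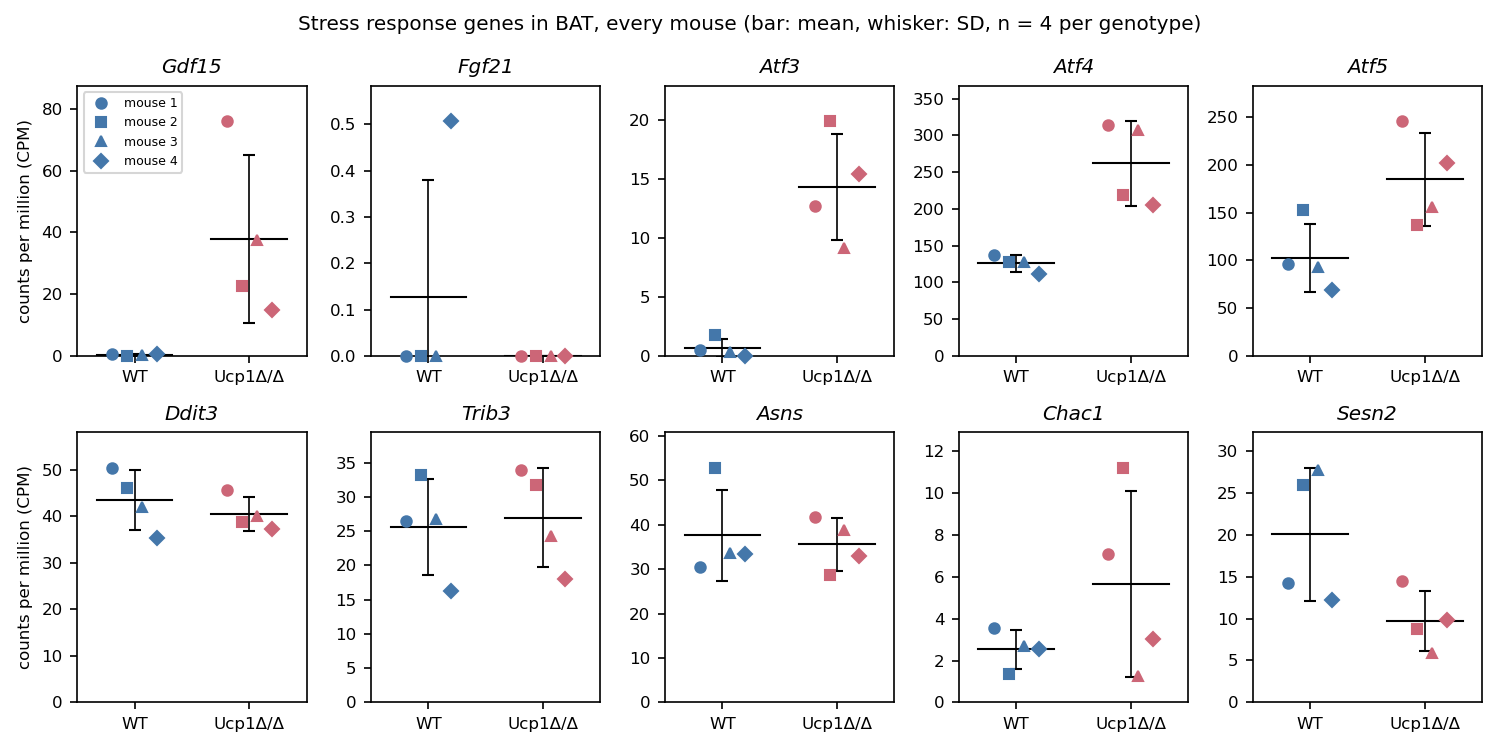
CPM of the 10 genes in every mouse, with 1 panel per gene and its own vertical axis from 0. Symbols mark mouse 1 to 4 of each genotype, horizontal bars the mean and whiskers the SD (n = 4), cut at 0. Gdf15, Atf3 and Atf4 separate the genotypes, and Ddit3, Trib3 and Asns overlap.

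At an adjusted p under 0.05, 4 of the 8 fitted genes were higher in Ucp1Δ/Δ mice (Gdf15, Atf3, Atf4 and Atf5), 1 was lower (Sesn2) and 3 were not called. Over all 8930 genes, 13.3% were higher and 7.63% lower, and 63.6% of all calls were therefore higher, or 78.5% when libraries were scaled by total counts only. Every Ucp1Δ/Δ mouse was above every WT mouse for 3 of the 8 genes, which compares with 14.4% of all genes, and below for 0 of them, which compares with 9.37%. Because the set was selected on this contrast, nothing is read from these counts. Atf5 lost its call without WT mouse 1 or 3 or Ucp1Δ/Δ mouse 1 or 4, and its log2 difference ranged from 0.69 to 1.09 with each mouse left out in turn. Sesn2 lost its call without WT mouse 2 or 3 or Ucp1Δ/Δ mouse 2, 3 or 4, with a range of -1.30 to -0.85.

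The wider ATF4 program was followed in 44 further target genes in 4 lists by function, of which 28 had enough counts to test. In Ucp1Δ/Δ mice 6 of the 28 were higher, 1 was lower and 21 were not called, a share of 21.4% higher beside 13.3% of all genes and of 3.57% lower beside 7.63%. Their median log2 difference was 0.25, and that of all genes was -0.01. Of the 6 higher genes, 3 encode amino acid transporters. Among the 6, Mthfd2, Jdp2 and Slc1a4 passed the count filter only with the help of the Ucp1Δ/Δ mice, where they were high. The calls and p-values of these genes, and the share of higher genes, are therefore read as a description.

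Of the 4 lists of ATF4 targets, amino acid transporters had the most calls, 3 of 4 tested genes, all higher. Slc3a2, the heavy chain that partners the exchangers of large neutral amino acids and cystine, was 29.2 ± 7.59 CPM in WT and 46.1 ± 10.0 CPM in Ucp1Δ/Δ mice (SD, n = 4 each; log2 difference 0.67, SE 0.22, adjusted p = 0.0403). Slc1a4, a carrier of alanine, serine and cysteine, had a log2 difference of 1.06 (SE 0.33, adjusted p = 0.0303), with 4.59, 4.93, 3.34 and 2.03 CPM in WT and 8.85, 7.16, 8.78 and 6.44 CPM in Ucp1Δ/Δ mice. Slc1a5, the glutamine carrier, was 1.45 times higher by the same fit (log2 difference 0.54, SE 0.18, adjusted p = 0.0439). For Slc1a4 and Slc1a5 the genotypes did not overlap, and for Slc3a2 Ucp1Δ/Δ mouse 3 lay within the WT range. Slc38a2 was not called (log2 difference 0.19, SE 0.21). DESeq2 called 1 of these genes and limma 2. The 3 calls were near the threshold: their adjusted p ranged from 0.0101 to 0.162 over all settings, and Slc1a4 lost its call without WT mouse 3 or 4 or Ucp1Δ/Δ mouse 1, 2 or 3, Slc1a5 without WT mouse 2 or 3 or any Ucp1Δ/Δ mouse, and Slc3a2 without WT mouse 1, 2 or 3 or Ucp1Δ/Δ mouse 1, 2 or 4.

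Among the enzymes of amino acid and one-carbon metabolism, 4 of 12 genes were testable. Mthfd2, the mitochondrial methylene-tetrahydrofolate dehydrogenase, had 4.08, 7.62, 3.67 and 4.56 CPM in WT and 17.7, 18.0, 16.7 and 22.8 CPM in Ucp1Δ/Δ mice. The genotypes did not overlap, and the log2 difference was 1.91 (SE 0.27, adjusted p = 1.17e-04). The call held in every setting that tested the gene. Shmt2, Pck2 and Gpt2 had log2 differences of 0.50 to 0.88 and were not called. Bcat1, which starts the breakdown of branched-chain amino acids, fell just short of the count filter. It had 0, 0, 1 and 2 counts in WT and 51, 36, 9 and 28 in Ucp1Δ/Δ mice, a ratio of 35.2 (counting interval 11.8 to 173).

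With every gene tested that had at least 1 count in any mouse, 9.81% of 16617 genes were higher and 5.31% lower. Of the 16 ATF4 targets below the main filter, 15 were then tested, 5 were higher and 0 were lower. The shares over 16617 genes include those above the main filter, so they are not a like-for-like background for these 15. The 5 higher genes were Bcat1 (adjusted p = 3.65e-14), Ppp1r15a, the phosphatase subunit GADD34 that reverses eIF2 phosphorylation (log2 difference 1.73, SE 0.40, adjusted p = 3.80e-04), Slc7a1, a carrier of cationic amino acids (2.38, SE 0.58, adjusted p = 9.13e-04), Psat1 of serine synthesis (1.40, SE 0.45, adjusted p = 0.0170) and Pycr1 of proline synthesis. Pycr1 had 0 counts in every WT mouse and 11 in Ucp1Δ/Δ mice, so that it entered the fit through the Ucp1Δ/Δ mice alone, and its log2 value and p are left out and its call is read as a description. Ppp1r15a had 7, 6, 4 and 7 counts in WT and 40, 23, 29 and 7 in Ucp1Δ/Δ mice, so that Ucp1Δ/Δ mouse 4 was at the WT level. These 5 genes were named after their values were seen.

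Of the genes for tRNA charging, 1 of 13 was called. Cars, cysteinyl-tRNA synthetase, had a log2 difference of 0.98 (SE 0.26, adjusted p = 0.0124) and did not overlap between genotypes. The other 12 genes, which include Gars, Sars and Aars, had log2 differences between -0.25 and 0.59. Among the regulators, Jdp2, a bZIP partner of ATF factors, was higher (4.49 ± 1.20 CPM in WT, 11.4 ± 4.00 CPM in Ucp1Δ/Δ mice, log2 difference 1.32, SE 0.33, adjusted p = 0.00961). Vldlr, the lipoprotein receptor that ATF4 is known to raise in liver, was lower, at 155.5, 166.7, 133.2 and 160.1 CPM in WT and 63.3, 66.9, 62.7 and 72.1 CPM in Ucp1Δ/Δ mice (log2 difference -1.21, SE 0.16, adjusted p = 5.61e-05). Cebpb, Cebpg, Ddit4, Nupr1 and Eif4ebp1 were not called.

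**Figure D3:**
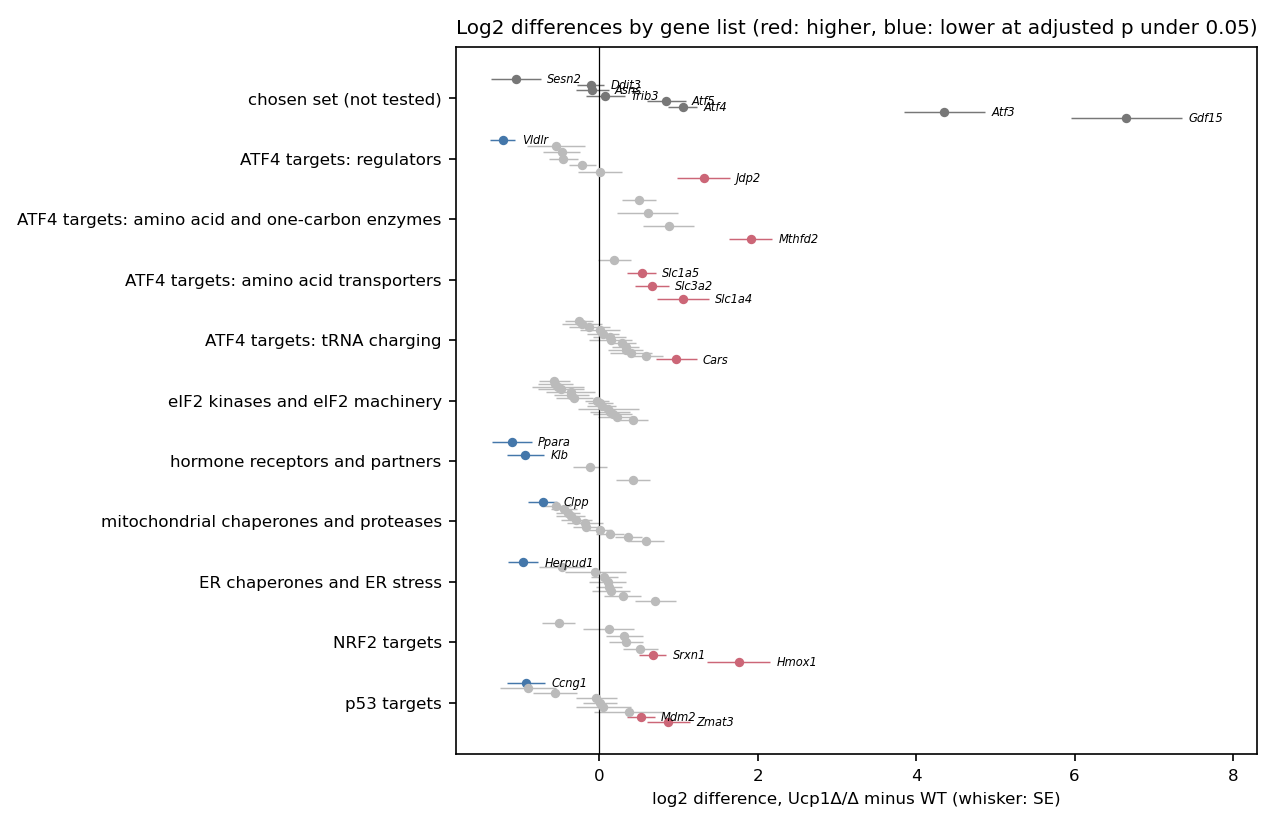
Log2 difference between Ucp1Δ/Δ and WT mice for each fitted gene, grouped by list, with whiskers for the SE. Red and blue mark genes higher or lower at an adjusted p under 0.05, light grey genes not called and dark grey the chosen set, which is not coloured by call because it was selected on this contrast. Gdf15 and Atf3 lie at 6.65 and 4.36, above the plotted ATF4 targets, of which Mthfd2 had the largest value, 1.91. Targets below the count filter, Bcat1 among them, are not plotted.

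The eIF2 kinases and the eIF2 machinery, which sit upstream of ATF4, gave 0 calls among 15 tested genes with edgeR, and the smallest adjusted p belonged to Eif2b4 and Eif2b1, subunits of the eIF2B exchange factor. Eif2b4 was 51.6 ± 13.7 CPM in WT and 35.0 ± 1.61 CPM in Ucp1Δ/Δ mice (log2 difference -0.56, SE 0.20, adjusted p = 0.0550), and Eif2b1 had a log2 difference of -0.55 (SE 0.22, adjusted p = 0.0889). The 4 kinases Eif2ak1 (HRI), Eif2ak2 (PKR), Eif2ak3 (PERK) and Eif2ak4 (GCN2) had log2 differences of 0.03, -0.36, 0.12 and -0.52, none called. Oma1 and Dele1, which carry the mitochondrial signal to HRI, had log2 differences of 0.14 and 0.17. At an unadjusted p under 0.05, 1 gene of the list was higher and 2 were lower, DESeq2 called 1 lower (Eif2b4) and limma 0. Kinase activity is set by phosphorylation, which was not measured.

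On the receiving side of the hormones, Gfral had 0 counts in every mouse, and Ret, its signalling partner, had 5 counts in WT and 8 in Ucp1Δ/Δ mice. Klb, the FGF21 coreceptor, was lower, with 29.6, 28.2, 36.4 and 19.8 CPM in WT and 16.3, 11.2, 13.4 and 19.7 CPM in Ucp1Δ/Δ mice (log2 difference -0.93, SE 0.24, adjusted p = 0.0107). The genotypes did not overlap but met closely, at WT mouse 4 and Ucp1Δ/Δ mouse 4, and without Ucp1Δ/Δ mouse 2 the adjusted p was 0.0527. Ppara, the fatty acid receptor that drives Fgf21 in liver, was also lower (203 ± 48.6 and 94.9 ± 34.2 CPM, SD, n = 4 each; log2 difference -1.10, SE 0.25, adjusted p = 0.00476), with 3 of 4 Ucp1Δ/Δ mice below every WT mouse. Fgfr1 and Furin were not called.

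Neighbouring stress programs were measured for comparison. Of 12 mitochondrial chaperones and proteases, 0 were higher and 1 was lower, the protease subunit Clpp (96.8 ± 23.5 CPM in WT, 59.1 ± 5.997 CPM in Ucp1Δ/Δ mice, log2 difference -0.71, SE 0.19, adjusted p = 0.0134). Without Ucp1Δ/Δ mouse 2 the adjusted p of Clpp was 0.0563. At an unadjusted p under 0.05, 2 genes of this list were higher and 4 lower, and DESeq2 and limma each called 0 higher and 2 lower. Hspd1, Hspa9 and Lonp1, among the genes used as marks of the mitochondrial unfolded protein response, had log2 differences of 0.14, 0.02 and -0.16. Hspe1, the partner of Hspd1, had -0.55 (SE 0.19) and was not called. Every Ucp1Δ/Δ mouse was below every WT mouse for 3 of the 12 genes (Clpp, Hspe1 and Yme1l1), beside 9.37% of all genes. The reverse held for 1 (Htra2), beside 14.4%. Of 9 tested genes of ER stress, 0 were higher and 1 was lower, Herpud1 of ER-associated degradation, which did not overlap (log2 difference -0.96, SE 0.19, adjusted p = 0.00173). Hspa5, the ER chaperone BiP, stood at 400 ± 66.8 and 419 ± 48.1 CPM (SD, n = 4 each). At an unadjusted p under 0.05, 1 of the ER genes was higher, and DESeq2 and limma called 0 of the 9 higher. Sdf2l1, an ER chaperone cofactor below the filter, had 6 counts in WT and 76 in Ucp1Δ/Δ mice, a ratio of 10.8 (counting interval 4.73 to 30.3). With the looser filter of at least 1 count in any mouse, Sdf2l1 was higher (log2 difference 3.295, SE 0.571). The adjusted p of that edgeR quasi-likelihood test was 6.205e-07. Ern1 and Creld2, also below the main filter, were not called in it.

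The NRF2 list, genes of the response to oxidants, had 2 of 7 tested genes higher. Hmox1, heme oxygenase, had 8.16, 6.27, 5.01 and 2.03 CPM in WT and 22.6, 23.3, 6.69 and 19.7 CPM in Ucp1Δ/Δ mice (log2 difference 1.76, SE 0.40, adjusted p = 0.00467), with Ucp1Δ/Δ mouse 3 inside the WT range. Srxn1, sulfiredoxin, rose without overlap (log2 difference 0.68, SE 0.17, adjusted p = 0.0114). Without WT mouse 3 it lost its call, with a log2 difference of 0.60 (adjusted p = 0.0539). Of 9 tested p53 targets, a program that can also raise Gdf15 and Sesn2, 2 were higher and 1 was lower. Mdm2 (log2 difference 0.53, SE 0.18, adjusted p = 0.0464) and Zmat3 (0.88, SE 0.28, adjusted p = 0.0345) were higher and Ccng1 was lower (-0.92, SE 0.24, adjusted p = 0.0119). Mdm2 lost its call whichever of the 8 mice was left out, and Zmat3 without WT mouse 1, 3 or 4 or any Ucp1Δ/Δ mouse. Cdkn1a, the p53 target p21, had a log2 difference of 0.01 (SE 0.22).

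**Figure D4:**
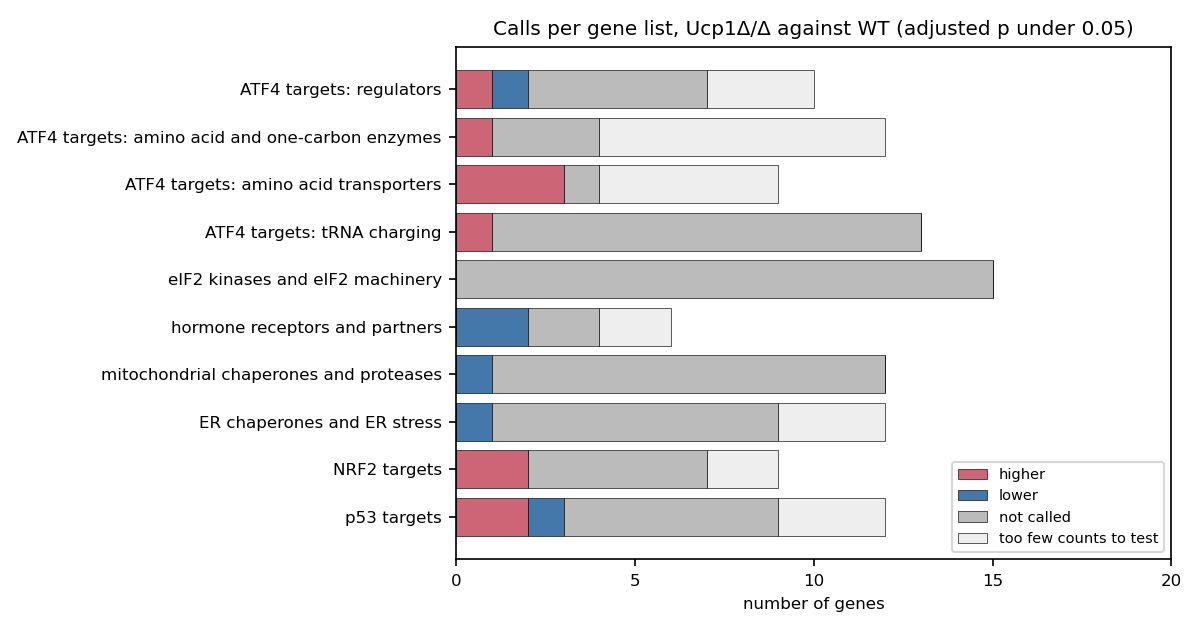
Number of genes per list that were higher, lower, not called or had too few counts to test, in Ucp1Δ/Δ against WT mice. The horizontal axis counts genes. Amino acid transporters hold 3 higher genes of 4 tested, and the eIF2 list holds 0 calls among 15.

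Markers of other cells moved with genotype beside these genes. Of 10 macrophage markers, 9 were tested and 9 were higher in Ucp1Δ/Δ mice, beside 13.3% of all genes. Their summed level was 87.2 to 128 CPM in WT and 921 to 1577 CPM in Ucp1Δ/Δ mice, and Trem2 was at 0 in 3 of 4 WT mice. Adgre1, Cd68, Mrc1, Itgam, Trem2 and Gpnmb passed the count filter only with the help of the Ucp1Δ/Δ mice, so their calls are read as a description. Of 6 fibroblast and endothelial markers, 4 were higher, the fibroblast genes Col1a1, Pdgfra, Dcn and Lum. Pdgfra and Lum likewise needed the Ucp1Δ/Δ mice to pass the filter. The endothelial genes Pecam1 and Cdh5 were not called (log2 differences 0.524 and 0.425, SE 0.191 and 0.179). Sums over all 6 were 320 to 393 CPM in WT and 670 to 1064 CPM in Ucp1Δ/Δ mice. Of 10 genes listed as brown adipocyte markers, 4 were lower (Cidea, Elovl3, Adipoq and Plin1) and Dio2 was higher. Ucp1 (log2 difference -0.338, SE 0.301), Cox8b (-0.442, SE 0.3), Ppargc1a, Fabp4 and Pparg were not called. Their sums were 13700 to 23468 CPM in WT and 10054 to 14912 CPM in Ucp1Δ/Δ mice over all 10 genes. The part of these cells in the differences of Gdf15, Atf3, Atf4 or the ATF4 targets was not tested.

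The order of the 4 Ucp1Δ/Δ mice differed between these measures. Summed macrophage markers were 1146, 1577, 921 and 975 CPM in mice 1 to 4, highest in mouse 2, as was Atf3. Gdf15 and Atf4 both ran from mouse 1 through mouse 3 and mouse 2 to mouse 4, which is not the order of the macrophage markers. Summed brown adipocyte markers were 14912, 10054, 12126 and 11270 CPM, and ran from mouse 1 through mouse 3 and mouse 4 to mouse 2. That is not the order of Gdf15 and Atf4 either. With 4 mice no correlation was computed.

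**Figure D5:**
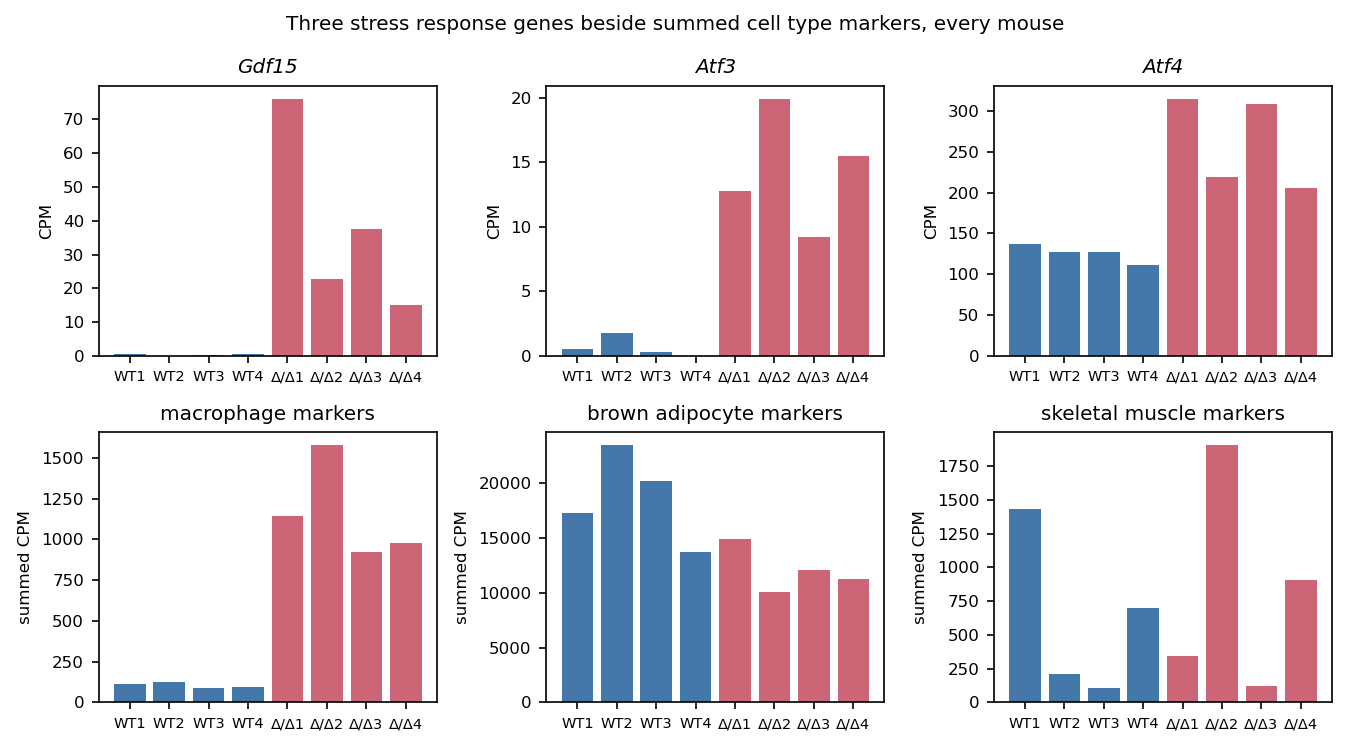
CPM of Gdf15, Atf3 and Atf4 and summed CPM of macrophage, brown adipocyte and skeletal muscle markers, with 1 bar per mouse (blue WT, red Ucp1Δ/Δ). Macrophage markers are lowest in WT (87.2 to 128 CPM), and muscle markers are high in WT mice 1 and 4 and Ucp1Δ/Δ mice 2 and 4.

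Skeletal muscle markers varied between mice of both genotypes, from 107 to 1432 CPM in WT and from 119 to 1904 CPM in Ucp1Δ/Δ mice, with 0 of 6 called. The Ucp1Δ/Δ mice with the most muscle signal, mice 2 and 4, were those with the lower Gdf15 and Atf4. Without WT mice 1 and 4 and Ucp1Δ/Δ mice 2 and 4, which leaves 2 mice per genotype, the log2 differences were 7.91 for Gdf15, 3.46 for Atf3 and 1.30 for Atf4. For Gdf15, Atf3 and Atf4 every Ucp1Δ/Δ mouse was above every WT mouse, so this subset was bound to keep their direction. Atf5 and, among the ATF4 targets named above, Cars, Slc1a4 and Slc3a2 lost their calls.

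The genes nearest to Gdf15 over the 8 mice were sought by the root mean square difference of log2 CPM, computed with a prior count of 2 and leaving out the chosen set. They were Ankrd23 (difference 0.73), a muscle ankyrin repeat protein, Atp6v0d2 (0.81), a subunit of the vacuolar proton pump, Eya2 (0.83), a transcriptional coactivator, Hcn2 (0.97), a pacemaker channel, and Mmp12 (1.02), the macrophage elastase. All 5 had at most 15 counts summed over the WT mice and 258 to 468 over the Ucp1Δ/Δ mice. Ankrd23, Eya2 and Hcn2 were highest in Ucp1Δ/Δ mouse 1, as was Gdf15, and Atp6v0d2 and Mmp12 were highest in mouse 2. This likeness follows mainly from the step between genotypes, which the measure shares with the way Gdf15 was selected.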

How the data were processed

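Single-end bulk RNA-seq libraries (NEGEDIA Digital mRNA-seq) were made from BAT, 1 per mouse, for 4 mice of each genotype. According to the methods of the study, the authors used bbduk for trimming, STAR for alignment (mm10) and HTseq-counts for counting, and deposited raw whole-number counts per gene, while the submitters' processing notes name Trimmomatic, HISAT2 and DESeq2. The deposited log2 values equal log2 of the count times 1 factor per mouse, plus 1, and were used for 1 alternative. The annotation release and strand setting are not given in the sources used here.

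Gene symbols and positions were taken from GENCODE annotation of GRCm38, and 30934 of 31053 identifiers had a symbol. Promoter sequences are those of RefSeq. Analyses used R 4.3.3, edgeR 4.0.16, limma 3.58.1 and DESeq2 1.42.0. Low genes were removed with filterByExpr, TMM factors were applied, and genotype was tested by the edgeR quasi-likelihood method, with Benjamini-Hochberg adjustment over all 8930 genes and a threshold of 0.05. Members and lists were chosen with earlier results of these data known. The genes named are all members, Pnpla2, in each other list up to 4 genes with the smallest adjusted p in each direction (or the 2 smallest where none passed), and the 5 genes nearest to Gdf15; any other gene was picked once its values were known.

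The fit was checked on simulated data with known changes. Smaller changes were called less often than larger ones, so a gene not called is not read as unchanged. Pairs of mice of 1 genotype had a chi-square of at least 3.76 times its expected value, and all 8 libraries were kept as separate. The labels do not say whether the mice shared litters, so p-values cover the spread between these mice. Alternatives were other scaling (DESeq2 size factors, total counts only), a looser filter (1 count in any mouse) and a stricter one (10 counts in every mouse), other tests (DESeq2's Wald test, limma trend on the log2 values), the replicate number as a block and each mouse left out in turn. The fit without the 4 mice with the most muscle marker signal was added after seeing the data.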

Additional observations from a re-analysis of the deposited data

Results flagged for a closer look

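Over 67 groups of 4 mice (each named gene in each genotype), 4 had a mouse whose log2 CPM stood far from the other 3 by Dixon's ratio, the gap to the nearest mouse divided by the range of the group, where about 3.4 are expected by chance at the limit for 4 values. Hmox1 in Ucp1Δ/Δ mouse 3 was at a log2 CPM of 2.90 (16 counts), below 4.36 to 4.59 in the other Ucp1Δ/Δ mice (ratio 0.862). Eya2 in WT mouse 4 was at 1.74 on 5 counts, above 0.32 to 0.56 in the other WT mice (ratio 0.835). Fgf21 in WT mouse 4 and Atp6v0d2 in WT mouse 1 each rest on 1 count where the other 3 mice had 0, which gives a ratio of 1. Among the 10 chosen genes, Fgf21 was the only such case, and neither Gdf15 nor Atf4 had a mouse past the limit in either genotype.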

How the results depend on the processing

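The 4 genes higher among the chosen set were called with other scalings, DESeq2, limma and the looser filter. Because the set was picked on this contrast, these repeated calls are a description and add no evidence. Gdf15 and Atf3, with 3 and 6 counts in WT, passed the main filter through the Ucp1Δ/Δ mice alone. Outside the chosen set, Mthfd2, Jdp2, Slc1a4, Hmox1 and Zmat3 also needed the Ucp1Δ/Δ mice to pass it. With at least 10 counts in every mouse required, Gdf15 and Atf3 were not tested, since their WT mice had too few counts, and 2 of the chosen genes were called higher. Under the same filter 0 genes were higher among the ATF4 regulators and 0 among the enzymes (Jdp2 and Mthfd2 were not tested), 2 among tRNA charging, 1 each among mitochondrial chaperones, ER genes, p53 targets and NRF2 targets. With at least 1 count in any mouse, 2 ATF4 regulators, 4 enzymes, 1 ER gene and 0 p53 targets were higher, and 1 eIF2 gene, 2 mitochondrial chaperones and 2 p53 targets were lower. With DESeq2, 2 regulators, 2 enzymes, 1 ER gene and 0 p53 targets were higher, and 1 eIF2 gene and 2 mitochondrial chaperones were lower. DESeq2's size factors gave 1 lower eIF2 gene, 2 lower mitochondrial chaperones and 1 higher p53 target, and limma gave 2 and 1 for the last pair.

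Scaling by total counts only moved the median log2 difference of all genes from -0.01 to 0.13 and gave 3 higher enzymes, 2 higher genes of tRNA charging, 2 higher mitochondrial chaperones and 1 higher ER gene. The differences of Gdf15, Atf3, Atf4 and Atf5 were larger than this shift under that scaling. These genes were picked on this contrast, so nothing is read from that comparison. The number of all genes higher was 1191, and 746 to 1630 over the alternatives, and that of genes lower was 681, and 265 to 883.

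Replicate numbers did not pair the mice. The correlation of same-numbered mice ranged from -0.196 to 0.304, and 1 of 4 mice correlated best with its own number. With the replicate block, 0 of the chosen genes (Sesn2 lost its call) were lower and 0 p53 targets were higher.

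When single mice were left out, the number called among the chosen genes ranged from 3 to 4 higher and from 0 to 1 lower. Over the lists, higher genes ranged from 1 to 2 among regulators, 1 to 4 among enzymes, 0 to 3 among transporters, 1 to 2 among tRNA charging, 0 to 1 among hormone receptors, 0 to 1 among mitochondrial chaperones, 0 to 2 among ER genes, 0 to 1 among p53 targets and 1 to 2 among NRF2 targets. Lower genes ranged from 1 to 2 among regulators, 0 to 1 among eIF2 genes, 1 to 2 among hormone receptors, 0 to 3 among mitochondrial chaperones and 1 to 2 among p53 targets.

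Without the 4 mice with the most muscle signal, 3 regulators, 2 enzymes, 0 genes of tRNA charging, 0 p53 targets and 0 NRF2 targets were higher, and 1 hormone receptor gene, 0 mitochondrial chaperones and 0 ER genes were lower, with 2 mice per genotype. The causes of these changes were not tested, apart from genes that a filter removed. At this depth genes with few counts per mouse, such as Fgf21 and Chac1, were left out of the fit.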
